A study of Homo sapiens with 20 samples.

Results

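Ammonium tetrathiomolybdate (TM) is a copper chelator, and the arrays described here record gene expression in MDA-MB-231 cells after 24 h of 10 µM TM without any other drug, set against vehicle-treated control cells. They were chosen by their labels, as the 3 arrays of TM 24 h and the 3 arrays of Control, and make up 6 of the 20 arrays of the series. MDA-MB-231 is an established human basal, triple-negative breast cancer line, so every group shares 1 cell line. Cells were grown in multiwell plates, and their RNA was read on Affymetrix Human Gene 1.0 ST arrays, whose probes lie along the whole transcript. Of the groups set beside TM 24 h, TM 12 h (2 arrays) received 10 µM TM for 12 h, Cis 24 h (3 arrays) received 36 µM cisplatin, a platinum drug that crosslinks DNA, for 24 h, and Cis/TM 24 h (3 arrays) received both drugs for 24 h. Vehicle controls for both times are described in the methods, but no time is given in the labels of the 3 Control arrays, so the controls cannot be told to match the 24 h culture. The methods give treatment in triplicate in 6-well plates, so the arrays of a group may be wells of 1 culture, and the p-values then measure the spread between wells.

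Values are log2 RMA signals, so a difference of 1 is a 2-fold change, and levels of different genes are not comparable because their probes differ. The medians over genes were 5.91, 5.77 and 5.79 on the TM 24 h arrays A, B and C and 5.77, 5.76 and 5.71 on the Control arrays. Pairs of TM 24 h arrays correlated across genes with r of 0.988 to 0.994, pairs of Control arrays with 0.983 to 0.985, and TM 24 h arrays with Control arrays with 0.972 to 0.982, where genes are not independent replicates. Array A of TM 24 h stood furthest from the others of its group, and without it 1097 genes were raised and 423 lowered in place of the 951 and 470 below. The 13 measured genes chosen as high in lines of this kind, mostly mesenchymal or basal and including simple epithelial keratins that these cells also make, had a median signal of 9.12 to 9.26 on the TM 24 h arrays and 8.33 to 8.95 on the Control arrays, and vimentin (VIM) read 11.07, 11.14 and 11.14 after TM against 11.33, 11.29 and 11.33. The 14 luminal markers had medians of 5.30 to 5.71 over the 6 arrays, the 9 blood markers 4.16 to 4.61 and the 11 fibroblast and endothelial markers 4.54 to 4.71, with the estrogen receptor gene ESR1 at 3.81 to 4.23 and PTPRC at 2.88 to 3.49. Not every member was low. The highest member in Control had a mean of 8.70 in the luminal list, 8.65 in the blood list and 6.27 in the fibroblast and endothelial list. The luminal median in Control lay at percentile 46.9 of all genes. By the test used below, the matrix protein SPARC and the simple epithelial keratin KRT18 of the first list were raised by TM (0.65 and 0.70), with 0 to 3 of that list raised across the other settings, and no marker of the last 3 lists was called.

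Copper enters human cells mainly through the transporter CTR1, encoded by SLC31A1, and is passed by small chaperones to the enzymes that need it, to cytochrome c oxidase in mitochondria and to the pumps ATP7A and ATP7B, which load copper into the secretory pathway and export it. Metallothioneins bind spare copper and zinc, and their transcription depends on the metal sensor MTF1. Much of human copper regulation acts on the location and stability of proteins, which an array does not read. TM binds copper and proteins that carry it, and was first used for copper overload.

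After 24 h of TM, 951 of 18417 genes were raised (5.16%) and 470 were lowered (2.55%) against Control, where a call by limma needed an adjusted p below 0.05 together with a change of more than 1.5-fold. The 15 largest falls included TCP11L2, CYP1B1 and TXNIP, and the 15 largest rises included 4 variant U1 small nuclear RNA genes, the mitochondrial genes TWNK and UCP2 and the ribosome assembly genes BYSL and BUD23. All 3 TM arrays lay above all 3 Control arrays for 3026 genes (16.4%) and below them for 2312 (12.6%), and 1350 genes (7.33%) were both called and non-overlapping. Log2 fold changes had a median SE of 0.135. The log2 fold change rose with the level of the gene (Spearman's rho 0.36 across genes), and the part of this trend in the calls was not tested by itself. With each array centred on its median, 659 genes were raised and 708 lowered, so that 48.2% of the calls were rises in place of 66.9%, and with quantile normalization the counts were 600 and 595 (50.2% rises), and with the trend with level removed they were 528 and 567 (48.2%).

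**Figure D1:**
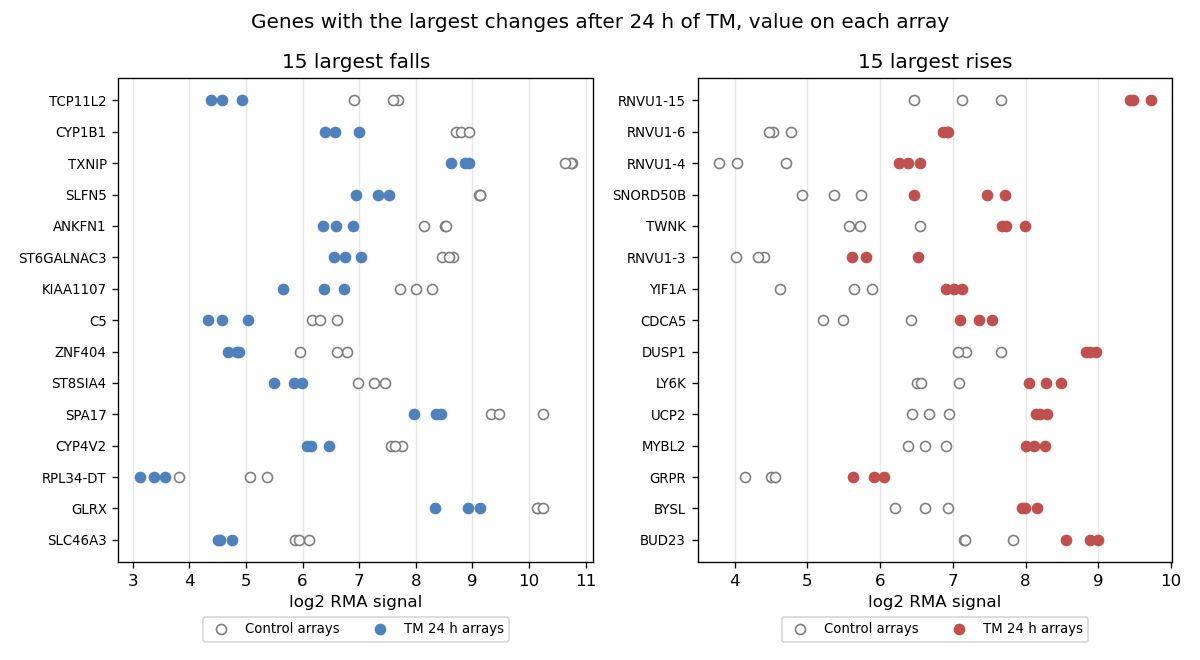
The log2 RMA signal on each of the 3 TM 24 h arrays (filled) and each of the 3 Control arrays (open) is plotted for the 15 largest rises and the 15 largest falls among called genes whose groups do not overlap. TCP11L2 showed the largest fall, from 6.91 to 7.68 on the Control arrays to 4.39 to 4.93 after TM.

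Copper handling is given first. Of 18 genes of copper uptake, export and chaperones, 16 were measured, 1 was raised (6.25%, beside 5.16% of all genes) and none was lowered, with a median log2 fold change of −0.10 beside −0.00222 over all genes. With quantile normalization or with the trend removed, none of these genes was raised and 1 was lowered. The raised gene was ATOX1, the chaperone that delivers copper to ATP7A and ATP7B, at 8.74, 8.65 and 8.73 after TM against 8.35, 8.23 and 7.73 in Control. Its TM arrays lay above all Control arrays, by 0.60 ± 0.13 (SE) on the log2 scale (limma, adjusted p = 0.0031), and this call was lost with median centring, quantile normalization, the trend removed, only these 6 arrays fitted, or without Control C. ATP7A, the copper-exporting ATPase, read 7.24, 7.54 and 7.75 after TM and 7.93, 7.97 and 7.84 in Control. The ATP7A groups did not overlap, and the difference of −0.41 (95% interval −0.74 to −0.08) had an adjusted p of 0.0718 and was not called. ATP7B differed by −0.29 (adjusted p = 0.233). SLC31A1, the copper importer, stood at 10.83, 10.86 and 10.90 against 11.08, 11.00 and 10.89, a difference of −0.13 (adjusted p = 0.299). CUTC, a copper-binding protein, at 0.51 and the metalloreductase STEAP2 at −0.47 had adjusted p of 0.00145 and 0.00333 but stayed under the 1.5-fold threshold.

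Among the users of copper, none of the 20 measured copper-dependent enzymes was called in either direction (median −0.01). Among them, cytosolic superoxide dismutase SOD1 differed by −0.03 (adjusted p = 0.854), lysyl oxidase LOX by −0.19 and ceruloplasmin CP by −0.48 (adjusted p = 0.0442, below 1.5-fold, on arrays between 3.75 and 4.50). Of the 12 measured genes of the metallothionein and MTF1 list, 1 was raised (8.33%) and none was lowered. It was MTF1 itself, at 8.88, 9.07 and 9.23 after TM against 8.53, 8.41 and 8.13, a rise of 0.71 ± 0.13 (SE, adjusted p = 6.0e-04). The metallothionein MT2A read 12.09, 12.16 and 12.14 against 12.39, 12.41 and 12.40, so all TM arrays were lower, with a difference of −0.27 (adjusted p = 0.0288), less than 1.5-fold. Among 23 zinc transporters, none was raised and 2 were lowered (8.70%, beside 2.55% of all genes). SLC30A4, a zinc exporter of vesicles, fell from 7.77, 8.46 and 7.90 to 6.49, 7.26 and 7.24 (−1.05 ± 0.19 SE, adjusted p = 7.2e-04). The other, SLC30A9, fell by 0.59 on the log2 scale, a call lost without TM 24 h A or without Control C.

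**Figure D2:**
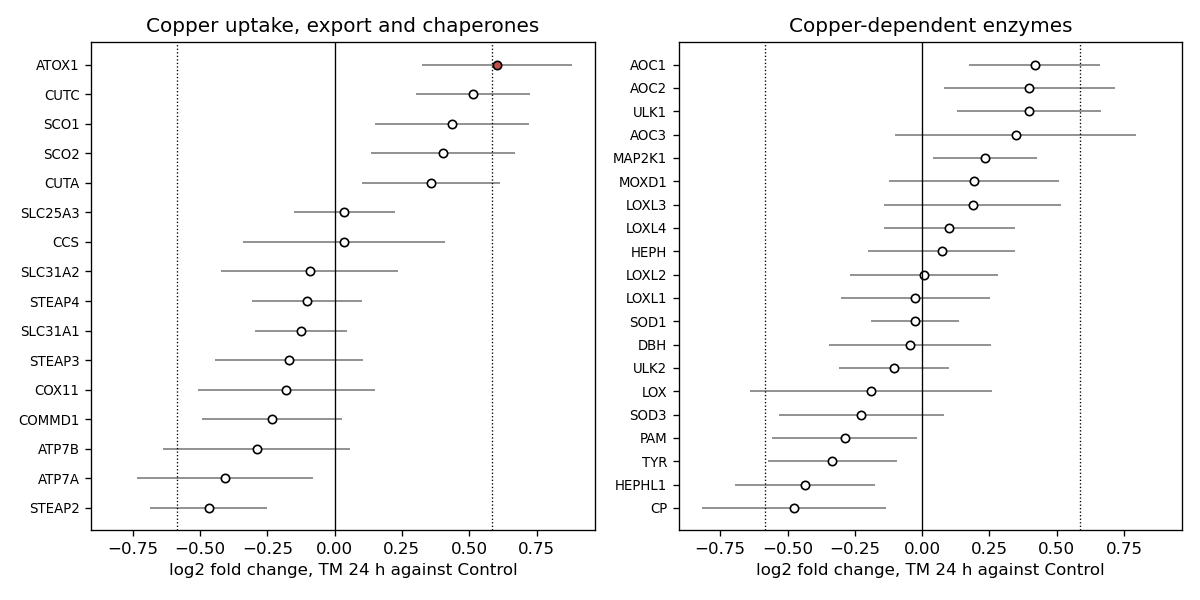
Points are log2 fold changes of TM 24 h against Control for the 16 measured genes of copper uptake, export and chaperones (left) and the 20 copper-dependent enzymes (right), with 95% intervals from limma, and dotted lines mark a 1.5-fold change. Of all genes shown, ATOX1 alone is filled as called, and the interval of ATP7A runs from −0.74 to −0.08.

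TXNIP, a thioredoxin-binding arrestin-family protein that restrains glucose uptake, and its relative ARRDC4 both fell. TXNIP read 10.75, 10.74 and 10.64 on the Control arrays and 8.93, 8.62 and 8.87 after TM, a 3.73-fold fall (−1.90 ± 0.09 SE on the log2 scale, limma, adjusted p = 3.9e-10). ARRDC4 went from 6.04, 6.63 and 6.84 to 4.99, 4.96 and 5.53 (−1.35 ± 0.18 SE, adjusted p = 5.0e-05). Neither gene had overlapping groups. Both genes are textbook targets of MondoA, a glucose-sensing transcription factor that pairs with MLX at E-boxes. Of the 18 measured genes of the list of arrestin-domain genes, thioredoxin partners and the MondoA network, 3 were raised and 4 were lowered, 16.7% and 22.2% beside 5.16% and 2.55% over all genes, with a median of 0.03. KLF10 (−0.62) and HBP1 (−0.62) fell, and both calls were lost without TM 24 h A. The raised genes were the mitochondrial thioredoxin TXN2, from 4.74, 5.83 and 5.17 to 6.50, 6.83 and 6.70 (1.43 ± 0.25 SE, adjusted p = 5.4e-04), MLX by 0.73 and MXD1 by 0.62. The call of MLX was lost without Control C, and that of MXD1 under 7 of 15 other settings.

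The 250 bases before the annotated starts of TXNIP and ARRDC4, which fell together, are shown with the letters that a search found, from RefSeq on GRCh38.p14. In the ARRDC4 sequence (chr15:97960453-97960702, plus strand), capitals mark an E-box, CACGTG, that begins 210 bases before the start. The ARRDC4 sequence also holds CCAAT letters on both strands, which are not marked. In the TXNIP sequence (chr1:145996580-145996829, minus strand, 1 of 2 starts), capitals mark CCAAT letters, once on each strand, beginning 140 and 105 bases before the start. The TXNIP sequence held no exact CACGTG. It does hold cacgag, 1 letter away from CACGTG, and again a few bases further on, after the second marked CCAAT, and these are not marked. E-boxes with other letters were not searched for, so their absence is not shown.
ARRDC4: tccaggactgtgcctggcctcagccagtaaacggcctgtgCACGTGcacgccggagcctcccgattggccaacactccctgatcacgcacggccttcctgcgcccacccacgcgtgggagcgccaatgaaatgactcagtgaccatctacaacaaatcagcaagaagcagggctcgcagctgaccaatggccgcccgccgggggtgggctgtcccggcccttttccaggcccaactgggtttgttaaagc
TXNIP: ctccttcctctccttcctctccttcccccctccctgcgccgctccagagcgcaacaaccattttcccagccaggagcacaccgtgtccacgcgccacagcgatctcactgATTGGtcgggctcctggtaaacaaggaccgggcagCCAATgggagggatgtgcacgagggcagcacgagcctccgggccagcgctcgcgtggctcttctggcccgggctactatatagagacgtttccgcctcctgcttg
An E-box was present in 7.38% of 20109 such windows of 14239 measured genes, in 10.7% of the 1087 windows of raised genes and in 5.53% of the 506 windows of lowered genes, and CCAAT on either strand in 32.6%, 34.7% and 37.5%. These are matches of letters and not sites shown to be bound.

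Several genes of the integrated stress response fell. This response, run by ATF4, raises amino acid synthesis and transport when protein synthesis is limited. Of 36 measured members, 9 were lowered (25%) and 2 were raised (5.56%), with a median of −0.19. The other settings gave 8 to 11 lowered and 1 to 5 raised. Asparagine synthetase ASNS read 10.01, 9.88 and 10.02 in Control and 8.72, 8.83 and 8.78 after TM, a 2.28-fold fall (−1.19 ± 0.09 SE, adjusted p = 1.0e-07). CTH, the last enzyme of cysteine synthesis from methionine, fell from 7.66, 7.75 and 7.83 to 6.03, 6.64 and 6.56 (−1.34 ± 0.16 SE, adjusted p = 1.4e-05). DDIT4, an inhibitor of mTORC1, fell from 6.43, 6.46 and 6.94 to 5.15, 5.52 and 5.39 (−1.26). In these 3 genes every TM array lay below every Control array. The lipoprotein receptor VLDLR fell (−1.17), as did KLHL24 (−0.87), the folate enzyme ALDH1L2 (−0.76), the serine synthesis enzyme PSAT1 (−0.73) and mitochondrial PEP carboxykinase PCK2 (−0.69), and NUPR1 fell (−0.66) with arrays that overlapped. PPP1R15A, whose product directs dephosphorylation of eIF2 alpha, rose instead, from 7.53, 7.84 and 7.72 to 8.48, 8.68 and 8.79 (0.95 ± 0.12 SE, adjusted p = 2.7e-05), and PPP1R15B rose by 0.59, a call lost with median centring, quantile normalization, the trend removed, or without TM 24 h C or Control C. ATF4 itself differed by 0.55 (adjusted p = 0.00182), under 1.5-fold, while DDIT3 differed by −0.44 and TRIB3 by −0.02. Outside this list, the neutral amino acid transporter SLC1A4 fell from 5.97, 6.36 and 6.29 to 4.89, 5.25 and 5.20 (−1.09 ± 0.11 SE), 1 of 2 lowered and 2 raised among 24 amino acid transporters.

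The promoter of ASNS is shown because its ATF4-responsive element is a standard of the field. In the 250 bases before 1 of its 2 starts (chr7:97872409-97872658, minus strand, GRCh38.p14), capitals mark TGATGNAA, the core of a C/EBP-ATF response element, 68 bases before the start.
ASNS: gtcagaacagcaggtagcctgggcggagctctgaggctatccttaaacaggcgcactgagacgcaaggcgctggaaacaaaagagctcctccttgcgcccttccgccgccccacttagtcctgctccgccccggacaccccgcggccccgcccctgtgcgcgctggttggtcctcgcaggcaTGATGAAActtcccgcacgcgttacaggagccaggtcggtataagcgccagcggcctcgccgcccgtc
Those letters, on either strand, were in 2.31% of all windows, 1.56% of the windows of raised genes and 2.77% of those of lowered genes.

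Targets of FOXO factors, which are active when insulin and growth factor signalling is low, were lowered or not called. Of 30 measured, 5 were lowered (16.7%) and none was raised, with a median of −0.08. The other settings gave 4 to 6 lowered and 0 to 2 raised. The atypical cyclin gene CCNG2 went from 7.93, 7.94 and 8.21 in Control to 6.84, 6.59 and 6.79 (−1.29 ± 0.10 SE, adjusted p = 1.5e-07). PDK4, which inhibits pyruvate dehydrogenase, went from 6.71, 6.49 and 6.97 to 5.26, 5.47 and 5.89 (−1.18 ± 0.14 SE). The TM arrays of both genes lay wholly below Control. The stress sensor SESN3 (−0.95), catalase CAT (−0.79) and RBL2 (−0.64) fell as well, the last call being lost without TM 24 h A, without Control C or with only these 6 arrays fitted.

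CYP1B1, a cytochrome P450 that oxidizes estrogens and polycyclic compounds, stood at 8.71, 8.79 and 8.93 in Control and at 6.40, 6.58 and 7.0 after TM, a 4.45-fold fall (−2.15 ± 0.14 SE, adjusted p = 1.0e-08). CYP1B1 is a known target of the aryl hydrocarbon receptor, yet it was the only called member among 12 measured genes of that receptor's list (median −0.10). Other genes among the 15 largest falls were TCP11L2, from 7.68, 6.91 and 7.60 to 4.39, 4.58 and 4.93 (−2.77 ± 0.16 SE, adjusted p = 4.4e-09), and SLFN5 of the Schlafen family, from 9.13, 9.12 and 9.14 to 6.95, 7.34 and 7.53 (−1.85 ± 0.11 SE, adjusted p = 7.7e-09). Every one of these genes had its TM arrays below the Control arrays. Glutaredoxin GLRX, which reverses protein glutathionylation fell from 10.15, 10.14 and 10.24 to 8.33, 8.92 and 9.14 (−1.38). The sialyltransferases ST6GALNAC3 and ST8SIA4 (−1.78 and −1.45), complement component C5 (−1.71), the fatty acid hydroxylase CYP4V2 (−1.41) and the lysosomal transporter SLC46A3 (−1.38) fell too. ANKFN1 (−1.79), KIAA1107 (−1.75), ZNF404 (−1.66), SPA17 (−1.42) and RPL34-DT (−1.40) complete the 15.

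Genes of glutathione metabolism and NRF2 targets moved in both directions. Of 42 measured, 4 were raised (9.52%) and 5 were lowered (11.9%), with a median of −0.11. The hydrogen peroxide scavenger GPX1 rose from 6.03, 6.39 and 6.08 to 7.20, 7.26 and 7.51 (1.16 ± 0.14 SE, adjusted p = 1.4e-05), a call lost with the second probe set of the gene, and GPX4, which reduces lipid peroxides, rose from 7.37, 7.52 and 7.06 to 8.03, 8.07 and 8.27 (0.80). GSTP1 rose by 0.73 and GSTO1 by 0.67. GSTA4, a glutathione transferase for lipid aldehydes, fell from 6.84, 7.02 and 7.30 to 5.60, 6.32 and 6.18 (−1.02 ± 0.16 SE), and GPX8 (−0.83), AKR1C3 (−0.79) and the malic enzyme ME1 (−0.75) fell with it. The NRF2 targets NQO1, TXNRD1 and HMOX1 differed by −0.40, −0.50 and 0.17 and were not called.

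Small nuclear RNA genes held the largest rises. U1 RNA recognizes the start of introns, and the variant U1 genes are near-identical copies whose probes can read each other, so their single values are uncertain. Among 23 measured genes of spliceosomal RNAs, 9 were raised (39.1%) and none was lowered, and 8 or 9 were raised under each of 15 other settings. RNVU1-15 stood at 6.47, 7.66 and 7.13 in Control and at 9.47, 9.43 and 9.72 after TM, a 5.46-fold rise (2.45 ± 0.26 SE, adjusted p = 6.0e-06). RNVU1-6 rose from 4.53, 4.77 and 4.47 to 6.87, 6.93 and 6.92 (2.32 ± 0.20 SE), RNVU1-4 by 2.22 and RNVU1-3 by 1.73, all without overlap, while RNVU1-8 and RNVU1-17 differed by −0.19 and 0.20 and were not called. Of 192 small nucleolar and Cajal body RNA genes, which guide RNA modification, 19 were raised (9.90%) and 6 lowered (3.13%), with a median of −0.11 and SNORD50B at the top (from 5.37, 4.92 and 5.74 to 6.47, 7.71 and 7.47). Median centring changed these counts to 14 and 15, and over all other settings they ran from 11 to 22 raised and from 0 to 15 lowered. The RNA components of RNase MRP and RNase P, RMRP and RPPH1, picked after their values were seen, rose by 0.80 (adjusted p = 0.00173) and 0.89 (adjusted p = 0.00435).

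Many genes that build ribosomes rose. Of 83 measured genes of ribosome biogenesis and rRNA processing, 28 were raised (33.7%, beside 5.16% of all genes) and none was lowered, with a median of 0.43. The TM arrays of 63 lay above all Control arrays, as they did for 16.4% of all genes. Bystin (BYSL), needed for the small subunit, rose from 6.93, 6.62 and 6.20 to 7.99, 7.95 and 8.15 (1.45 ± 0.16 SE, adjusted p = 8.0e-06). NOB1, the nuclease that makes the end of 18S rRNA, rose from 7.72, 7.66 and 7.25 to 8.82, 8.93 and 8.97 (1.37 ± 0.13 SE), and the large-subunit factor MRTO4 rose from 6.27, 6.73 and 6.09 to 7.68, 7.74 and 7.76 (1.36). In each, the Control arrays varied more among themselves than the TM arrays, and none of them reached a TM array. RRP9 rose by 1.20, NOP2 by 1.07 and fibrillarin FBL, the rRNA methyltransferase, by 0.80, and BUD23, which methylates 18S rRNA, rose by 1.44 and is among the 15 largest rises. Cytosolic ribosomal proteins themselves counted 10 raised (15.2%) and none lowered of 66, with a median of 0.14, and 6 raised with quantile normalization or without Control C. Of 30 subunits of the RNA polymerases, 12 were raised (40.0%) and none was lowered, with a median of 0.56. POLR2A, the catalytic subunit of RNA polymerase II, rose from 8.52, 8.71 and 8.40 to 9.44, 9.39 and 9.52 (0.91 ± 0.10 SE, adjusted p = 8.3e-06), and POLR1E of RNA polymerase I from 9.56, 9.52 and 9.31 to 10.29, 10.32 and 10.27 (0.83). Across the other settings 20 to 29 ribosome biogenesis genes and 9 to 15 polymerase subunits were raised.

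Mitochondrial genes rose unevenly. TWNK, the helicase that unwinds mitochondrial DNA, went from 5.57, 5.73 and 6.55 in Control to 7.68, 7.73 and 7.99 after TM (1.85 ± 0.22 SE, adjusted p = 1.7e-05). It was 1 of 5 raised (17.2%) among 29 genes of mitochondrial DNA maintenance and expression, of which RRM2B, a ribonucleotide reductase subunit, was the one lowered, from 7.44, 7.29 and 7.27 to 6.40, 6.56 and 6.81 (−0.75). The tRNA-end nuclease ELAC2 rose by 0.88. Over the other settings 3 to 6 of these genes were raised and 1 to 3 lowered. Of 73 mitochondrial ribosomal proteins 16 were raised (21.9%) and none was lowered, with a median of 0.33, led by MRPL46, from 5.96, 6.52 and 6.36 to 7.29, 7.44 and 7.43 (1.10). Across the other settings 11 to 21 of these proteins were raised, with 11 under quantile normalization. Complex I had 3 of 45 subunits and assembly factors raised (6.67%), NDUFV1 by 0.93, NDUFB9 by 0.86 and NDUFS6 by 0.65, and 2 to 7 over the other settings. Cytochrome c oxidase, the copper-containing end of the respiratory chain, had 2 of 30 raised (6.67%), COA7 from 7.36, 7.58 and 6.97 to 8.19, 8.27 and 8.39 (0.98 ± 0.14 SE) and COX10 by 0.61, the latter a call lost in 8 of 15 other settings. These last shares were close to the 5.16% of all genes. UCP2, a carrier of the inner mitochondrial membrane, rose from 6.67, 6.94 and 6.44 to 8.20, 8.14 and 8.29 (1.53 ± 0.12 SE, adjusted p = 1.5e-07).

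Genes of DNA replication and of entry into S phase were among those that rose. Of 56 replication genes 18 were raised (32.1%) and none was lowered, with a median of 0.43. POLD2 of DNA polymerase delta rose from 8.65, 8.33 and 7.52 to 9.44, 9.36 and 9.55 (1.28 ± 0.18 SE, adjusted p = 8.8e-05), and the helicase subunit MCM2 from 6.62, 6.02 and 6.03 to 7.31, 7.22 and 7.45 (1.10). MCM7 rose by 0.99, RFC2 by 0.87 and CDC45 by 0.83. The count of replication genes fell to 8 with the trend with level removed and to 9 with quantile normalization. Among 32 E2F, G1/S and cyclin genes 8 were raised (25%) and 1 was lowered, with 6 to 10 raised and 0 or 1 lowered over the other settings. MYBL2, a transcription factor of dividing cells, rose from 6.39, 6.91 and 6.62 to 8.01, 8.11 and 8.26 (1.49 ± 0.12 SE, adjusted p = 4.9e-07), and the phosphatase CDC25A, which activates CDK2, from 7.63, 7.75 and 7.29 to 8.89, 8.73 and 8.96 (1.31). E2F1 rose by 0.84 and CDK4 by 0.78. Of 34 genes of homologous recombination and crosslink repair, 7 were raised (20.6%), with XRCC2 at 0.96, and none was lowered, and 4 were raised with quantile normalization, with the trend removed or with only these 6 arrays fitted. Of 49 mitotic genes, 4 were raised (8.16%) and 1 was lowered, with a median of 0.00, and the other settings gave 2 to 7 raised and 1 to 4 lowered. Sororin (CDCA5), which holds sister chromatids together, rose from 5.49, 6.42 and 5.22 to 7.10, 7.36 and 7.54 (1.62) and AURKB by 0.92, while the hyaluronan receptor and spindle protein HMMR fell from 7.88, 8.31 and 8.26 to 6.69, 7.18 and 7.09 (−1.16 ± 0.17 SE). In bulk samples like these, a different share of cells in a phase and a different amount of RNA per cell cannot be told apart.

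Protein turnover and sugar metabolism also rose in part. Of 43 proteasome genes 8 were raised (18.6%) and none was lowered, with a median of 0.30. With the trend removed or quantile normalization 4 were raised, and 5 were with median centring or without Control C. The lid subunit PSMD3 rose from 7.50, 7.85 and 7.19 to 8.50, 8.59 and 8.66 (1.07 ± 0.14 SE, adjusted p = 5.1e-05) and the ATPase PSMC3 by 0.87. Of 18 glycolysis genes 7 were raised (38.9%) and none was lowered, with a median of 0.50, and 2 were raised with the trend with level removed, 4 with quantile normalization and 3 without Control C. The glucose importer SLC2A1 rose from 8.34, 8.60 and 8.33 to 9.39, 9.33 and 9.44 (0.97 ± 0.14 SE, adjusted p = 1.2e-04), and its relative SLC2A3 rose by 0.60. GAPDH, PGK1 and LDHA differed by 0.28, 0.15 and −0.02 and were not called. In the pentose phosphate pathway 3 of 14 were raised (21.4%), among them transketolase TKT, from 6.62, 6.99 and 6.85 to 7.55, 7.70 and 7.63 (0.80).

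**Figure D3:**
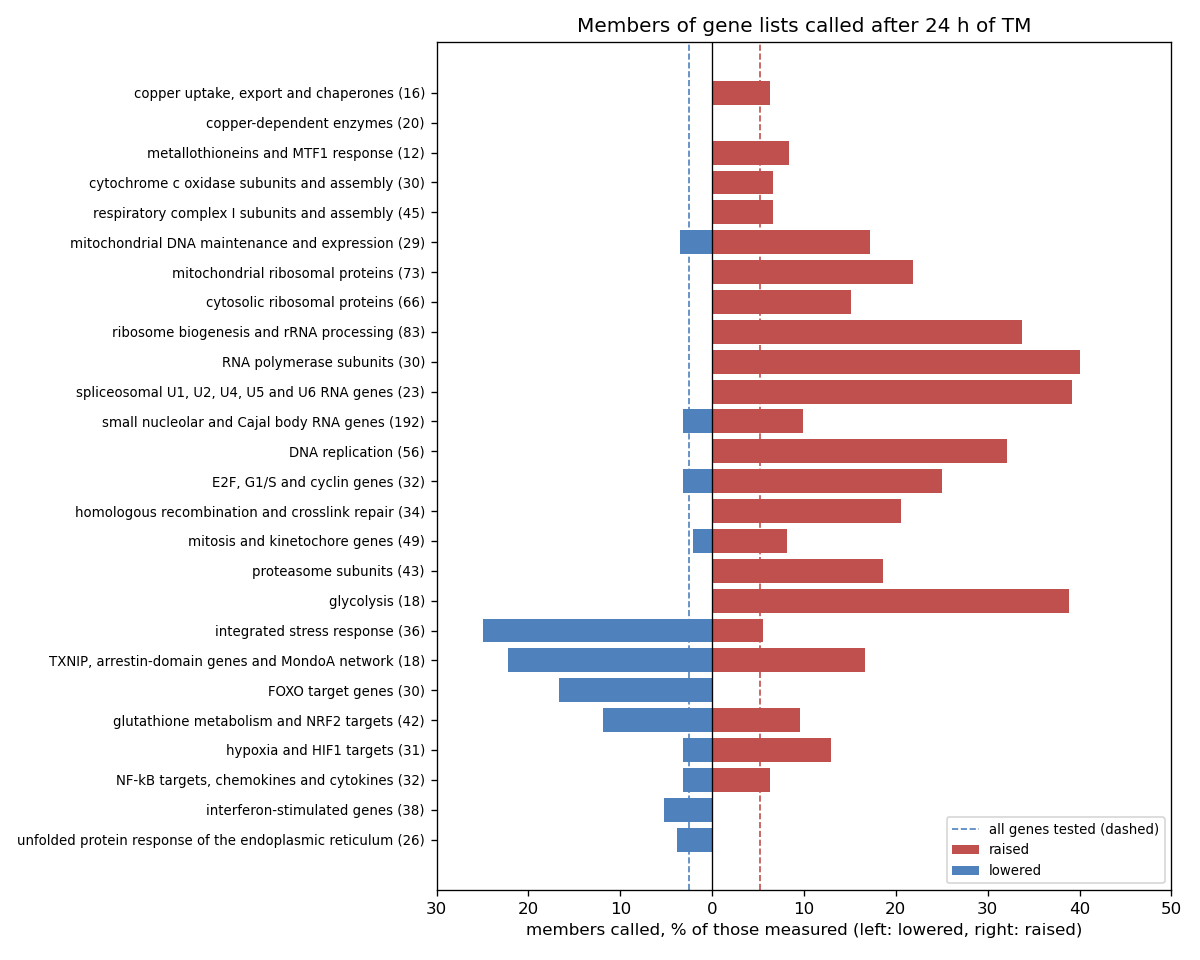
Bars give the percentage of the measured members of each gene list (number in brackets) that were raised (right) or lowered (left) by TM at 24 h, and dashed lines give the shares over all genes tested, 5.16% and 2.55%. RNA polymerase subunits (40.0%) and spliceosomal RNA genes (39.1%) extend furthest to the right and the integrated stress response (25%) furthest to the left.

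Further lists, though not every list, are given beside the 5.16% raised and 2.55% lowered of all genes. Of 31 hypoxia and HIF1 targets 4 were raised (12.9%) and 1 was lowered (3.23%), and the other settings gave 2 to 6 raised and 0 to 2 lowered. Of 49 lysosomal hydrolase and V-ATPase genes 7 were raised (14.3%) and none was lowered, with 3 to 8 raised over the other settings. Of 27 VEGF and angiogenesis factors 3 were raised (11.1%) and 2 lowered (7.41%), with VEGFA at 7.87, 7.96 and 8.26 after TM against 8.68, 8.62 and 8.55 (−0.59 ± 0.12 SE, adjusted p = 0.00211, not called without TM 24 h A, TM 24 h B, Control A or Control B) and its coreceptor NRP1 at −0.69, and 0 to 3 of the list were lowered over the other settings. Of 32 NF-kB targets, chemokines and cytokines 2 were raised (6.25%) and 1 was lowered (3.13%), and neither count was above 0 with quantile normalization or the trend removed. Of 38 interferon-stimulated genes none was raised and 2 were lowered (5.26%), with SAMD9L from 7.64, 7.60 and 7.98 to 6.30, 6.68 and 6.80 (−1.15), and of 26 genes of the unfolded protein response none was raised and 1 was lowered (3.85%). None of 19 circadian clock genes was called. Among 33 CDK inhibitors and p53 targets 4 were raised (12.1%) and 3 lowered (9.09%), with 2 raised under quantile normalization or with the trend removed. The proapoptotic PMAIP1 (Noxa) rose from 7.81, 7.47 and 7.93 to 8.66, 8.76 and 8.67 (0.96 ± 0.11 SE, adjusted p = 8.1e-06) and the death receptor TNFRSF10A by 1.18, while cyclin G1 (CCNG1) fell from 8.98, 8.83 and 9.32 to 7.78, 8.19 and 8.18 (−0.99), and the CDK inhibitor CDKN1A differed by 0.46 (adjusted p = 0.0262), under 1.5-fold. Of 19 breast cancer stem cell markers 1 was raised (5.26%) and 2 were lowered (10.5%), NOTCH1 by 0.66, HES1 by −0.74 and CD24 by −0.74. The call of NOTCH1 was lost without Control A or Control C, and that of CD24 without Control A. CD44 differed by 0.19 and was not called. DUSP1, a phosphatase that switches off MAP kinases, rose from 7.18, 7.66 and 7.07 to 8.89, 8.83 and 8.96 (1.59 ± 0.13 SE, adjusted p = 3.0e-07), 1 of 3 raised (7.69%) among 39 immediate early genes and MAPK phosphatases, with 1 to 6 raised over the other settings. The remaining genes of the 15 largest rises were YIF1A of transport from the endoplasmic reticulum (1.63), the surface antigen LY6K (1.56) and the gastrin-releasing peptide receptor GRPR (1.46).

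Of the 173 measured microRNA genes, 2 were raised (1.16%) and 7 lowered (4.05%), with a median of −0.16, and all are named here after their values were seen. The probes read the gene or its hairpin and not the mature microRNA, and the levels were low, with a median of 3.81 in Control beside 5.73 over all genes. Mature sequences from RefSeq (GRCh38.p14) are printed for the called genes that kept their call in all 15 other settings, MIR21 and MIR221, and for the pairs of genes that share all or most of a seed, so that a seed can be set beside its value. Capitals mark the seed, bases 2 to 8.
hsa-miR-21-5p: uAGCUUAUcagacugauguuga
hsa-miR-221-3p: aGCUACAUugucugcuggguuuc
hsa-miR-222-3p: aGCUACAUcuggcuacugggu
hsa-miR-15a-5p: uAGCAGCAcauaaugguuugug
hsa-miR-503-5p: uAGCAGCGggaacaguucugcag
Mature miR-21-5p lies at chr17:59841273-59841294 (plus strand) and miR-221-3p at chrX:45746180-45746202 (minus strand). MIR21 read 5.49, 5.44 and 5.98 in Control and 4.52, 4.11 and 4.39 after TM (−1.30 ± 0.24 SE, adjusted p = 9.7e-04). MIR221 read 5.25, 5.97 and 5.77 against 4.46, 4.64 and 4.34 (−1.18 ± 0.16 SE, adjusted p = 4.3e-05). Both genes had every TM array below Control. MIR222, its neighbour with the same seed, differed by 0.10 (adjusted p = 0.819), with arrays that overlapped. MIR15A fell (−0.71), a call lost with quantile normalization or the trend removed, whereas MIR503, whose seed differs from that of miR-15a in its last base, rose by 0.59, a call lost in 7 of 15 settings. MIR16-1, the neighbour of MIR15A, differed by −0.46 and was not called. The other lowered genes were MIRLET7A2 (−0.83, arrays overlapping), MIR181B1 (−0.72), MIR28 (−0.71) and MIR365A (−0.59), and MIRLET7A1 and MIR181B2, which give the same mature microRNAs as MIRLET7A2 and MIR181B1, differed by −0.02 and 0.14 and were not called. MIR27A rose by 0.66 while its cluster neighbours MIR23A and MIR24-2 differed by 0.22 and −0.31 and were not called. Each of these further calls was lost in at least 1 setting.

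In the 250-base windows before gene starts, other motifs were counted on both strands for the pathways above. The metal response element core (TGCACNC or TGCGCNC), which MTF1 recognizes, was in 28.6% of all windows, 35.1% of those of raised genes and 23.5% of those of lowered genes. The dioxin response element core GCGTG was in 38.5%, 51% and 32.8%, the hypoxia response element core ACGTG, which lies inside CACGTG, in 20.3%, 25.7% and 18.8%, and the E2F site (TTTCGCGC, TTTGGCGC or TTTCCCGC) in 2.96%, 4.78% and 2.57%. The antioxidant response element core TGACNNNGC was in 11.5%, 11.9% and 12.6%, and the sterol response element TCACNCCAC in 0.885%, 1.01% and 1.78%. Windows of raised genes also held more G and C, with medians of 64.8% beside 62.4% for all and 59.2% for lowered genes, and the part of base composition in the shares was not tested.

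Very few differences were called between 24 h and 12 h of TM. Against TM 12 h, no gene was higher after 24 h (0%) and 1 was lower (0.00543%) by limma, and at an unadjusted p under 0.05 with the same fold threshold 11 were higher and 50 lower. The 1 gene, the antisense RNA gene SLC25A5-AS1, differed by −0.71, and it was not called when any of the 5 arrays was left out. TM 12 h against Control called 1656 genes higher (8.99%) and 573 lower (3.11%). Since both times are set against the same Control arrays, their values are only given side by side. TXNIP differed from Control by −1.90 at 12 h and −1.90 at 24 h, CYP1B1 by −1.98 and −2.15, ASNS by −0.99 and −1.19, TWNK by 2.22 and 1.85, UCP2 by 1.77 and 1.53, RNVU1-15 by 3.42 and 2.45, and ATP7A by −0.39 and −0.41. None of these genes was called between the times, a comparison with 2 arrays of TM 12 h.

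Many genes separated TM from cisplatin at 24 h. In TM 24 h, 595 genes were higher (3.23%) and 979 lower (5.32%) than in Cis 24 h, a comparison that uses no Control array. Rises made up 37.8% of those calls, 48.1% with quantile normalization and 49.7% with the trend removed. TXNIP was lower after TM than after cisplatin (−2.09 on the log2 scale, adjusted p = 1.3e-11), and so were SLFN5 (−2.53, adjusted p = 1.3e-11), CYP1B1 (−2.29) and the cell cycle gene CCNG2 (−1.93). ARRDC4 (−1.49), PDK4 (−1.56) and SLC30A4 (−1.65) were lower too. GRPR (1.51), RNVU1-4 (1.88), RNVU1-6 (1.34) and RNVU1-15 (1.08) were higher after TM than after cisplatin. The largest remaining differences were in genes that TM left near Control: the neutrophil chemokine CXCL8 differed by −2.25 from Cis 24 h and by 0.27 from Control, the cathepsin CTSV by −2.30 and 0.12, and the carbonic anhydrase CA2 by −2.22 and 0.16. In the other direction, DIAPH2 differed by 2.96 from Cis 24 h and by 0.18 from Control, SCFD2 by 2.93 and 0.18, LPP by 2.85 and 0.36, and PTPRM by 2.80 and −0.39. DOCK4, higher by 2.77, was also raised by TM, from 8.26, 8.14 and 7.99 to 8.63, 8.72 and 8.96 (0.64). MYBL2, UCP2, DUSP1 and TWNK, raised by TM, differed from Cis 24 h by −0.22, −0.17, 0.14 and 0.31 and were not called. Several lists with many rises against Control had medians near or below Cis 24 h. The median differences from Cis 24 h were −0.28 for DNA replication, −0.14 for proteasome genes and −0.01 for mitochondrial ribosomal proteins. They were 0.03 for glycolysis, 0.04 for RNA polymerase subunits and 0.22 for ribosome biogenesis, beside 0.02 over all genes. All drug-treated arrays are set against the same 3 controls, whose time is not given, so a difference common to the drugs and one of the control cultures cannot be told apart.

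Given on top of cisplatin, TM had fewer genes called, and most genes called with TM alone had fold changes of the opposite sign. Cis/TM 24 h against Cis 24 h, which shares no array with TM 24 h against Control, called 84 genes higher (0.456%) and 193 lower (1.05%). Of the 951 genes raised by TM alone, 2 were called higher and 105 lower with cisplatin, and 852 (89.6%) had a fold change below 0, against 52.1% of all genes. Of the 470 genes lowered by TM alone, 12 were called higher and none lower, and 360 (76.6%) were above 0. Across all 18417 genes both log2 fold changes had r = −0.47 and Spearman's rho −0.44. Genes are not independent replicates, and the fold changes moved with level in opposite senses (rho 0.36 and −0.21). With the trend with level removed, r was −0.41, 85.8% of 528 raised genes were below 0 and 83.6% of 567 lowered genes were above 0. The counts with cisplatin rested on single arrays, with 23 to 59 higher and 12 to 292 lower when 1 array was left out, the fewest lower without Cis 24 h A and the most without Cis/TM 24 h A. Without Cis 24 h B, Cis/TM 24 h B or Cis/TM 24 h C they numbered 34, 55 and 25, and the higher ones numbered 23, 52 and 29, and 32 without Cis 24 h A. Rises were 30.3% of the calls, 53.1% with median centring, 55.7% with quantile normalization and 59.6% with the trend removed.

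**Figure D4:**
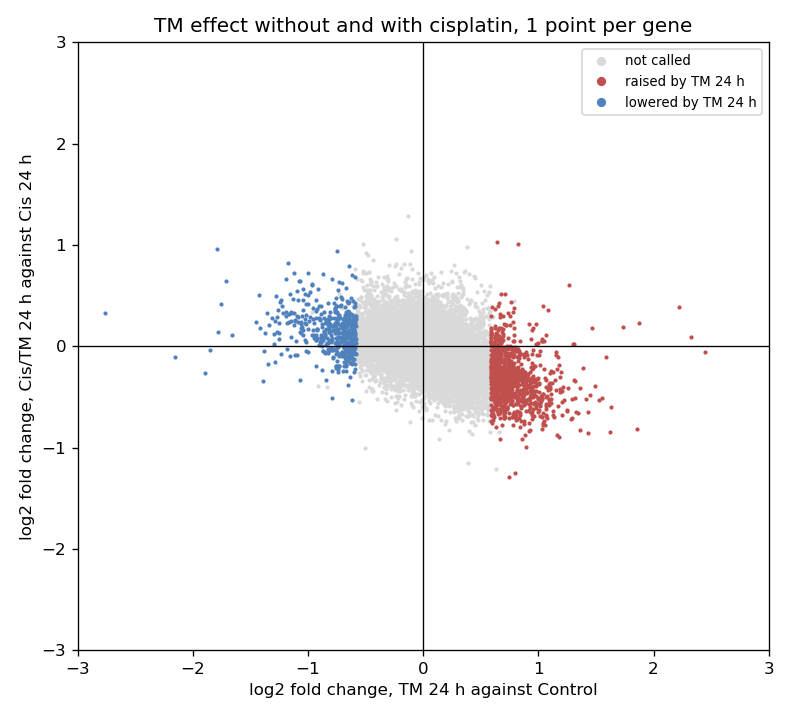
Each point is 1 of 18417 genes, with the log2 fold change of TM 24 h against Control on the x axis and that of Cis/TM 24 h against Cis 24 h on the y axis, coloured by the call of TM without cisplatin. Most genes raised by TM alone lie below 0 on the y axis (852 of 951), and most lowered ones lie above it (360 of 470).

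Named genes showed both patterns. TXNIP, at −1.90 with TM alone, differed by −0.26 with cisplatin (adjusted p = 0.125), CYP1B1 by −0.11, SLFN5 by −0.03 and ARRDC4 by −0.17. ANKFN1, lowered by TM alone (−1.79), was higher with cisplatin by 0.96 (adjusted p = 0.00549). TWNK differed by −0.82, CDCA5 by −0.84, NOB1 by −0.83, GPX1 by −0.87, PPP1R15A by −0.62 and POLD2 by −0.71, each raised by TM alone and lower when TM was added to cisplatin. ELOF1, a transcription elongation factor, differed by 0.74 with TM alone and by −1.29 on top of cisplatin, and RMRP by 0.80 and −1.25, the largest such falls, while the genes most raised on top of cisplatin included ARL15 (1.28), UTRN (1.05) and DOCK4 (1.03). ATP7A was higher in Cis/TM 24 h than in Cis 24 h by 0.60 (limma, adjusted p = 0.0397), near the 1.5-fold threshold. For ATP7A the test of the difference between both TM effects gave 1.01 (limma interaction term, adjusted p = 0.00286). Neither ATP7A value was checked under the other settings. Over all genes, that interaction was called higher for 936 (5.08%) and lower for 2104 (11.4%), with 30.8% higher in the deposited scale, 55.4% with median centring, 45.4% with quantile normalization and 48.7% with the trend removed.

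The genes that TM raised and lowered had different median lengths. Among 16899 protein-coding genes, whose median span from start to end of the gene was 27.3 kb on GRCh38.p14, the 902 raised had a median of 18.8 kb and the 417 lowered one of 50.3 kb. The share raised was 5.14% of genes under 5 kb, highest at 8.40% of those of 5 to 10 kb and lowest at 2.86% of those over 200 kb, and the share lowered was 1.49%, 1.39% and 3.78% in the same bins. Against cisplatin the order was reversed, with the longer median among the genes higher after TM and the shorter among the lower ones. The 577 genes higher after TM than after cisplatin had a median of 270.3 kb. Of genes over 200 kb, 29.3% were higher after TM than after cisplatin. DIAPH2 spans 920 kb, PTPRM 839.5 kb, LPP 738 kb, SCFD2 493 kb and DOCK4 480 kb. ST6GALNAC3, lowered by TM (−1.78) and higher after TM than after cisplatin by 1.77, spans 563 kb. The lowered genes TXNIP and CYP1B1, by contrast, span 4.15 kb and 8.64 kb. Median levels in Control also differed between the length bins, from 5.36 to 6.45, and their part was not tested.

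**Figure D5:**
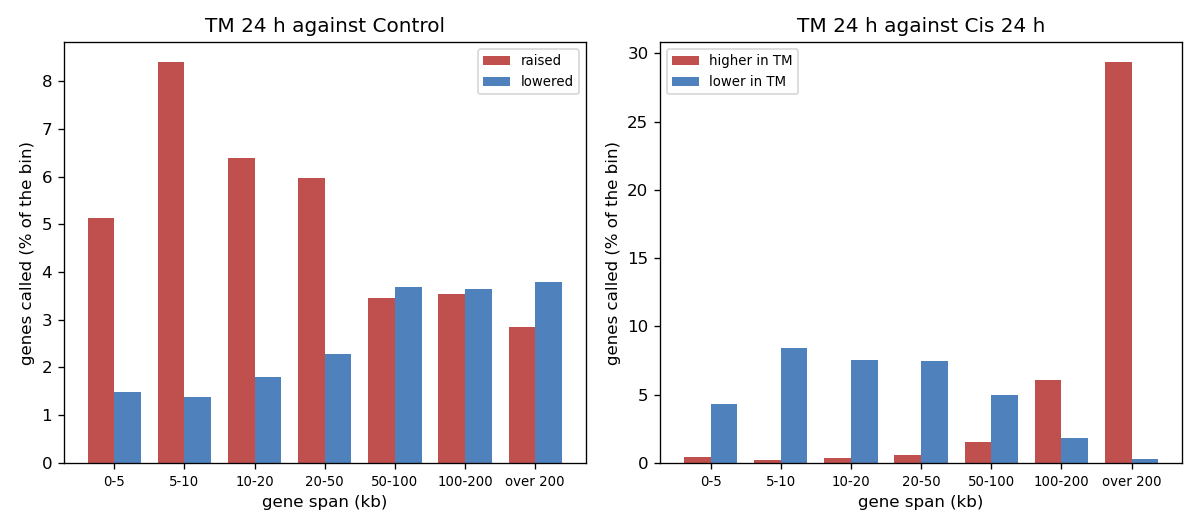
Bars give the percentage of protein-coding genes in each bin of gene span (kb) that were called, for TM 24 h against Control (raised and lowered) and for TM 24 h against Cis 24 h (higher and lower). Calls of rises by TM peak at 8.40% in the 5 to 10 kb bin, and genes higher than after cisplatin reach 29.3% over 200 kb.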

How the data were processed

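The authors extracted RNA from MDA-MB-231 cells, hybridized it to Affymetrix Human Gene 1.0 ST arrays and normalized the signals with RMA. The log2 values they deposited were used unchanged. RMA corrects background, normalizes the arrays and combines the probes of a gene, which compresses differences at low signal. The quantile normalization named above was a further step on these deposited gene values. Of 33297 probe sets, 19460 carried 1 gene symbol, 1754 several and 12083 none. The probe set with the highest mean over 20 arrays stood for each of 18417 genes. One model with 7 groups (13 residual degrees of freedom) was fitted with limma 3.58.1 in R 4.3.3, with eBayes and Benjamini-Hochberg adjustment over all genes, and was tested on simulated data. A call needed an adjusted p below 0.05 and more than a 1.5-fold change. Named were the 15 largest rises and falls with non-overlapping arrays, members of fixed lists, and the 5 largest in other comparisons. The arrays, lists and tests were chosen with earlier results of these data known. Lists are described by counts and medians without a test. Promoters and microRNAs came from RefSeq tables (GRCh38.p14). RNA isolation is given as RNeasy in the methods and as Trizol in the labels. Alternatives changed the scaling, the filter, the fit, the probe set and the arrays included. Depth does not apply to arrays, and their number limits the precision.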

Additional observations from a re-analysis of the deposited data

Results flagged for a closer look

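The TM effect with cisplatin (Cis/TM 24 h minus Cis 24 h) differed from the TM effect without it (TM 24 h minus Control) in each of the 30 genes with the largest changes, by limma's interaction term. The genes were chosen for a large effect of TM alone, which is one side of this difference, so a difference of opposite sign is partly built in. The differences in log2 were, for genes lowered by TM alone, TCP11L2 3.10, ANKFN1 2.75, C5 2.36, KIAA1107 2.17, CYP1B1 2.04, ST6GALNAC3 1.93, SPA17 1.93, SLFN5 1.82, ZNF404 1.77, ST8SIA4 1.69, TXNIP 1.64, CYP4V2 1.60, SLC46A3 1.51, GLRX 1.33 and RPL34-DT 1.05. For genes raised by TM alone they were TWNK −2.67, RNVU1-15 −2.51, CDCA5 −2.46, RNVU1-6 −2.23, YIF1A −2.23, BUD23 −2.09, LY6K −2.06, UCP2 −2.06, BYSL −1.93, MYBL2 −1.88, RNVU1-4 −1.83, DUSP1 −1.69, SNORD50B −1.64, RNVU1-3 −1.54 and GRPR −1.28. The adjusted p ran from 5.5e-07 (TXNIP, UCP2, TCP11L2 and ANKFN1) to 0.0418 (RPL34-DT). With 3 arrays per group, single arrays were not tested for standing apart.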

How the results depend on the processing

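The 30 genes with the largest changes kept their direction and their call in all 15 other settings, and of 338 called list members 179 did, 158 lost the call in at least 1 setting and 3 reversed in at least 1, with some doing both. With the second probe set of a gene, AKR1C1 read 0.03, RPS15 −0.0015 and UHRF1 −0.21. For TM 24 h against Control (951 higher, 470 lower), the higher genes numbered 600 with quantile normalization and 528 with the trend with level removed, and the lower genes 708 with median centring and 308 with only these 6 arrays fitted. Leaving out 1 array gave 788 to 1163 higher and 423 to 625 lower. Against TM 12 h the 1 lower gene became 0 with quantile normalization, with only these 5 arrays fitted, with the replicate block and when 1 array was left out (0 to 0), and at unadjusted p 11 were higher and 50 lower. Against Cis 24 h, leaving out 1 array gave 535 to 698 higher and 792 to 1154 lower. For Cis/TM 24 h against Cis 24 h (84 and 193), 84, 82 and 80 were lower with median centring, quantile normalization and the trend removed, and leaving out 1 array gave 23 to 59 higher and 12 to 292 lower. The interaction (936 and 2104) gave 1799 higher with median centring, 1358 lower with quantile normalization and 1253 lower with the trend removed, and 753 to 1117 higher and 1813 to 2269 lower with 1 array left out. The cause of these moves was not tested. The labels do not say whether the array letters pair the samples, and the main fit did not pair them. Residuals of same-letter arrays of TM 24 h and Control correlated at 0.20, −0.075 and 0.093. Over 57 same-letter pairs of all groups the median was 0.0083, with a range from −0.42 to 0.61, so a link between some same-letter arrays is not settled. With the letter as a replicate block, 951 genes were higher and 475 lower against Control, 596 and 978 against Cis 24 h, 80 and 189 for TM on top of cisplatin and 943 and 2099 for the interaction. Genes near background have no detection value, so a low level cannot be told from none.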
